A study of Homo sapiens with 14 samples.

Results

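The 59 numbered zinc finger genes at the distal end of the long arm of chromosome 19 were followed across 4 knockdowns of HUSH and HUSH2 subunits and 2 controls in K562 cells, an established line from a chronic myeloid leukaemia. The members were taken by name and position, with no measured value in the rule, from the 35805 gene rows of the authors' deposited table. Earlier results of these data were known when the set was chosen. They are every ZNF gene whose symbol is ZNF followed by a number, with or without a final letter, and whose start lies at base 55000000 of chromosome 19 or beyond (hg38). In every group, controls included, the cells carry dCas9-KRAB, a Cas9 without cutting activity that is joined to the KRAB repressor domain and is led to a chosen gene by a guide RNA. Total RNA was measured from cells given guides against TASOR (2 libraries in the labels), TASOR2 (3), MPP8 (2) or PPHLN1, the gene of Periphilin (2), from untransduced cells without a guide (2) and from cells given the AAVS1 control guide sgAAVS1 (3). RNA of the guided cells was taken 7 days after transduction, and the libraries of a knockdown come from different guides, not from repeats of 1 guide. The labels do not say whether the cells were a single clone.

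KRAB zinc finger proteins bind DNA through a row of C2H2 zinc fingers, and their KRAB domain recruits TRIM28, which brings the histone methyltransferase SETDB1 and silences the bound site, often a transposon. The genes themselves lie in tandem clusters, most of them on human chromosome 19, and their bodies and 3′ ends are known to carry the silencing mark H3K9me3. HUSH is a silencing complex of TASOR, MPP8 and Periphilin that keeps H3K9me3 over transcribed transposons and some genes, and HUSH2 holds TASOR2 in place of TASOR. The comparison asks how transcripts of the cluster stand when each of these subunits is reduced.

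The values are group means on a log2 scale of RPM (reads scaled to a common library depth), recovered from the deposited columns. They carry no SD, n or p-value, because the table holds no single libraries, so the spread between guides or replicates could not be measured. A call, higher or lower, needed 3 things: a difference of at least 1 between 2 group means, a larger mean above 0, and a 95% counting interval of that difference that does not cover 0. The value after ± is the half-width of that interval, which covers counting error only. In bulk RNA a change in the share of cells that use a gene and a change in RNA per cell cannot be told apart. The geometric mean depth was 5857937 to 7406968 reads per library, and 16433 genes had at least 1 group mean above 0 and were tested. Of the 59 members, 53 were tested and 44 had all 6 means above 3. The targeted transcripts stood in their own knockdowns at 6.56% (TASOR), 37.5% (TASOR2), 28.2% (MPP8) and 40.8% (PPHLN1) of the sgAAVS1 mean. All 10 erythroid K562 markers had means above 3 in every group, and 9 of 20 markers of other blood, epithelial, fibroblast or endothelial cells did too, among them KRT8, KRT18 and LYZ. The other-cell markers summed to 727 in TASOR, 706 in TASOR2, 782 in MPP8, 764 in PPHLN1, 652 in untransduced and 692 in sgAAVS1 cells RPM, with CD8A, MS4A1 and CDH5 at 0 reads in all groups. Their part in the member differences was not tested.

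By position the members fell into 3 blocks, parted by gaps of over 400 kb. The block nearest the centromere (55476332 to 55645622) holds 7 members, the middle block (56087366 to 56671783) holds 9, and the block nearest the telomere (57191500 to 58481230) holds 43. A KRAB A-box core was found in the longest reading frame of 44 members. None of the 7 members of the first block had it, 6 of the middle block and 38 of the telomere-side block did. Members had 3 to 23 C2H2 motifs in that frame, with a median of 12. Transcripts of the first block were rich in GC, with a median of 64.9%, against 41.9% in the middle block and 46.1% in the telomere-side block.

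Member promoters were searched for stretches of sequence that they share. RefSeq promoters on GRCh38.p14 (250 bases before to 50 after the gene start) were matched for 54 of the 59 members. The run of 12 bases held by the largest number of them, sought on both strands, was GGCGGGACTTCC, present in 15 of the 54 (27.8%) and in 0.29% of all 35116 promoters. The commonest run that shares no 6 bases with it was AACTACATTACC, present in 11 of the 54 (20.4%), while 14 of all 35116 promoters held it. Members were counted by gene and all promoters by entry, and the entries of the members are among the 35116. The runs were picked by how many member promoters hold them, so a high member share follows in part from the search. Promoters of the other chromosome 19 zinc finger genes were not counted apart. All members with either run lie in the telomere-side block. The 5 promoters shown here carry both runs (ZNF772, ZNF416), the second run only (ZNF418, ZNF587) or the first run only (ZNF671), and include a member that was not called in any knockdown (ZNF587). They are printed 5′ to 3′ on the gene's strand, with the runs in capitals.
ZNF772 (chr19:57477517-57477816, minus strand): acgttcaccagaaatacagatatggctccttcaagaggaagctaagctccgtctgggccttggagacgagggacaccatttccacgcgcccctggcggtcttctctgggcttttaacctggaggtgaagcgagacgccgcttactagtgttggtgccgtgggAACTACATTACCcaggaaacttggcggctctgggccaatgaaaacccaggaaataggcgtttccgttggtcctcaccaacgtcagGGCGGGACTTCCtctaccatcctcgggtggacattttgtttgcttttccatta
ZNF416 (chr19:57578862-57579161, minus strand): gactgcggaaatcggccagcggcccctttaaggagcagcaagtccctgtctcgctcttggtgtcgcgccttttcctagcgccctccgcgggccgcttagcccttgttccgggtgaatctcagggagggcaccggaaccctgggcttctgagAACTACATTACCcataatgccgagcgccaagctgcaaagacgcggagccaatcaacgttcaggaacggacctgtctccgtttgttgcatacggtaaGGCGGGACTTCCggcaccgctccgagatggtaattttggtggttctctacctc
ZNF418 (chr19:57935353-57935652, minus strand): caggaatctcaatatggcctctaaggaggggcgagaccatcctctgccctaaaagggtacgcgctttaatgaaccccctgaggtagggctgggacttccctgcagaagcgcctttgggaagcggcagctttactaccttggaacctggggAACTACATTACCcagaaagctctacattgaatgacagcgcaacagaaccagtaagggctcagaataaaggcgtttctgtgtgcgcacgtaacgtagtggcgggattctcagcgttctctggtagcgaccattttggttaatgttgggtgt
ZNF587 (chr19:57849609-57849908, plus strand): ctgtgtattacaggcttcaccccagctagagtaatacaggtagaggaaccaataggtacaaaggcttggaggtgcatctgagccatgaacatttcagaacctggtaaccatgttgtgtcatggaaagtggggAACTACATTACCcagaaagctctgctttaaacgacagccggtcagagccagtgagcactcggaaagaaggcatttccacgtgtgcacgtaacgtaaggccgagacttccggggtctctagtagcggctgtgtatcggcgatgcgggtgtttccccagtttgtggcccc
ZNF671 (chr19:57727575-57727874, minus strand): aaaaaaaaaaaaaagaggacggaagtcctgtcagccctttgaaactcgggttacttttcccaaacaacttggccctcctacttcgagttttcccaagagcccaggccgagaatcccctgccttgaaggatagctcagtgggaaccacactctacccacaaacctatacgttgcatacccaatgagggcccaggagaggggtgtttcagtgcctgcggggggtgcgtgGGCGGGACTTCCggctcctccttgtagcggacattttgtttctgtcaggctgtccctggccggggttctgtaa
Among short motifs searched on both strands, CCAAT was in 61.1% of member promoters against 34.6% of all, CGGAAG in 64.8% against 19.5%, GGGCGG in 68.5% against 44.9%, and TATAAA in 1.85% against 11.5%. GGGCGG and CGGAAG can overlap the first run by part of their letters. The median promoter held 23 CG dinucleotides in members and 14 over all promoters. A match describes these letters only and is not a factor's site.

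More members were called higher in the MPP8 and PPHLN1 knockdowns than in the TASOR and TASOR2 knockdowns, and none was called lower than in sgAAVS1. The difference between these counts was not tested. In the TASOR knockdown 3 of 53 tested members were higher, where 1.86% of all tested genes were. In the TASOR2 knockdown 4 of 53 were higher (2.13% of all genes), in the MPP8 knockdown 11 of 53 (1.57%) and in the PPHLN1 knockdown 14 of 53 (2.76%). In untransduced cells 1 of 53 was higher, ZNF606, against 1.31% of all genes. The shares of all genes called lower were 0.31% in TASOR, 1.98% in TASOR2, 0.268% in MPP8, 0.596% in PPHLN1 and 0.219% in untransduced cells. In all, 14 members were higher in at least 1 knockdown and 39 in none. The 4 comparisons share the sgAAVS1 libraries, so a member low in sgAAVS1 stands higher in all of them.

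**Figure D1:**
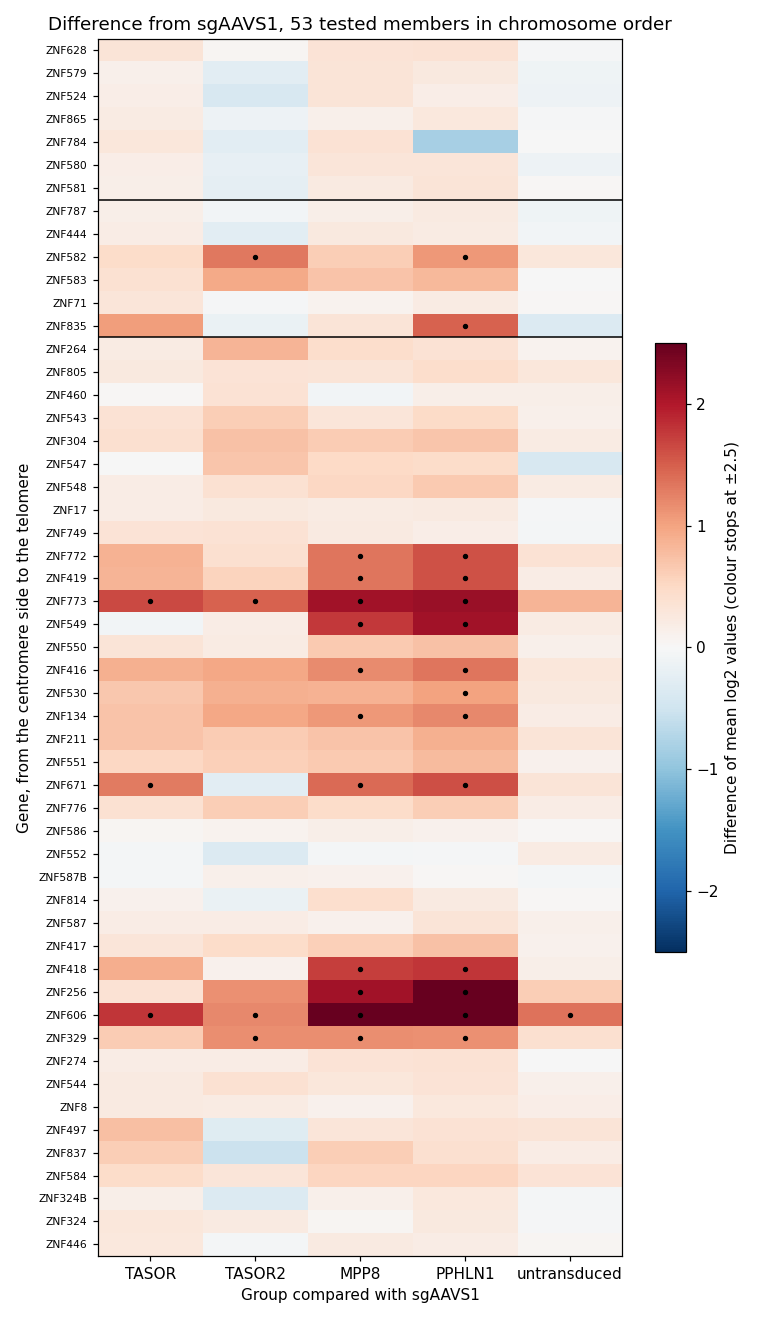
Difference of each knockdown and of untransduced cells from sgAAVS1 (colour, difference of mean log2 values, stopping at 2.5 either way) for the 53 tested members in chromosome order, with black lines between the 3 blocks. Dots mark members called higher, 3 in TASOR, 4 in TASOR2, 11 in MPP8, 14 in PPHLN1 and 1 in untransduced cells, most of them between ZNF772 and ZNF329.

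As a group the members lay above the middle of all genes in each knockdown. The median member difference was 0.30 in TASOR, 0.23 in TASOR2, 0.37 in MPP8, 0.39 in PPHLN1 and 0.13 in untransduced cells on the log2 scale, where all tested genes had medians of 0.16, 0.07, 0.12, 0.17 and 0.05 in the same order. The difference exceeded the all-gene median in 40 of 53 members in TASOR, 35 in TASOR2, 46 in MPP8, 46 in PPHLN1 and 31 in untransduced cells. After centring each group on its median over tested genes the member medians were 0.09 in TASOR, 0.14 in TASOR2, 0.21 in MPP8, 0.18 in PPHLN1 and 0.06 in untransduced cells. The mean was lowest in sgAAVS1 in 26 of 53 members (49.1%), as it was in 32.5% of all tested genes. It was highest in PPHLN1 in 26 members, in TASOR2 in 13, in MPP8 in 8, in TASOR in 5 and in untransduced cells in 1. The same counts over all tested genes were not made. The all-gene median difference from sgAAVS1 was also highest in PPHLN1 (0.17).

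Untransduced cells served as a further control. Higher than in both untransduced and sgAAVS1 cells were 0 members in TASOR (0.505% of all genes), 1 in TASOR2 (ZNF582, 0.968%), 7 in MPP8 (0.663%) and 11 in PPHLN1 (1.18%). Against untransduced cells alone, 0 members were higher in TASOR (1.17% of all genes), 2 in TASOR2 (ZNF582 and ZNF547, 1.28%), 7 in MPP8 (1.16%) and 11 in PPHLN1 (1.52%). ZNF547, which was not called against sgAAVS1, had a mean of 3.27 in TASOR2, 2.18 in untransduced and 2.58 in sgAAVS1 cells, and the TASOR2 mean exceeded the untransduced mean by 1.09 ± 0.44.

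The called members lay close together. The stretch from the start of ZNF772 (57466663) to the end of ZNF329 (58155110) spans 0.688 Mb and holds 22 tested members. Its ends were chosen after the values were seen, so the counts inside and outside are a description. Inside it, 3 members were higher in TASOR, 3 in TASOR2, 11 in MPP8 and 12 in PPHLN1, while of the 31 members outside it 0, 1, 0 and 2 were. The median difference inside was 0.58 in TASOR, 0.51 in TASOR2, 0.97 in MPP8, 1.07 in PPHLN1 and 0.20 in untransduced cells. Outside it was 0.22 in TASOR, 0.19 in TASOR2, 0.31 in MPP8, 0.33 in PPHLN1 and -0.01 in untransduced cells.

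At the centromere side of that stretch stand ZNF772, ZNF419 and ZNF773, adjacent KRAB genes. ZNF772 (57466663 to 57477570, minus strand) had means of 4.92 in TASOR, 4.45 in TASOR2, 5.39 in MPP8, 5.63 in PPHLN1, 4.40 in untransduced and 4.05 in sgAAVS1 cells. Its difference from sgAAVS1 was 1.34 ± 0.21 in MPP8 and 1.58 ± 0.20 in PPHLN1, both called, and 0.87 ± 0.21 in TASOR and 0.40 ± 0.24 in TASOR2, which did not pass. Against untransduced cells the PPHLN1 call of ZNF772 was kept (1.23) and the MPP8 call was lost (0.99). ZNF419 (57487711 to 57496097), a gene from which a minor histocompatibility antigen is known, had 4.40 in TASOR, 4.11 in TASOR2, 4.89 in MPP8, 5.15 in PPHLN1, 3.75 in untransduced and 3.56 in sgAAVS1 cells. The MPP8 and PPHLN1 means of these genes were the highest of the 6, and the untransduced and sgAAVS1 means the lowest. ZNF419 was higher by 1.33 ± 0.24 in MPP8 and 1.59 ± 0.24 in PPHLN1. ZNF773 (57499915 to 57518404) was read less, with 1.49 in TASOR, 1.30 in TASOR2, 1.92 in MPP8, 2.0 in PPHLN1, 0.68 in untransduced and -0.17 in sgAAVS1 cells. It was called in all 4 knockdowns, by 1.66 ± 0.90 in TASOR, 1.47 ± 0.94 in TASOR2, 2.09 ± 0.88 in MPP8 and 2.17 ± 0.88 in PPHLN1. Against untransduced cells ZNF773 stood 0.81 ± 0.77 higher in TASOR and 0.63 ± 0.82 in TASOR2, which did not pass, and 1.25 ± 0.75 in MPP8 and 1.32 ± 0.74 in PPHLN1, which did.

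ZNF549, ZNF416, ZNF530 and ZNF134 follow. Reads per library of a gene, here and below, are geometric means over the libraries of a group, with 0 reads set to 0.9. ZNF549 (57527325 to 57557542) was near its detection limit, with 2.45 reads per library in TASOR, 2.45 in TASOR2, 7.48 in MPP8, 9.38 in PPHLN1, 3.16 in untransduced and 2.29 in sgAAVS1 cells. It was higher in MPP8 (1.77 ± 1.26) and PPHLN1 (2.09 ± 1.20), or 1.02 and 1.25 with a pseudocount of 0.5, still called. It overlaps ZNF550 on the other strand, which had a difference of 0.66 in MPP8 and 0.73 in PPHLN1. ZNF416 (57571566 to 57578927, minus strand) had means of 4.34 in TASOR, 4.44 in TASOR2, 4.65 in MPP8, 4.81 in PPHLN1, 3.74 in untransduced and 3.46 in sgAAVS1 cells. All 4 knockdown means of ZNF416 exceeded both controls. Over sgAAVS1 the differences were 0.88 ± 0.26 in TASOR, 0.98 ± 0.27 in TASOR2, 1.19 ± 0.26 in MPP8 and 1.35 ± 0.25 in PPHLN1. Of these, MPP8 and PPHLN1 passed. Against untransduced cells PPHLN1 passed (1.06) and MPP8 did not (0.91). ZNF134 (57614233 to 57623356), a member without a KRAB core in its frame, had 6.04 in TASOR, 6.31 in TASOR2, 6.41 in MPP8, 6.54 in PPHLN1, 5.52 in untransduced and 5.33 in sgAAVS1 cells. It passed in MPP8 (1.07 ± 0.14) and PPHLN1 (1.20 ± 0.13) and missed in TASOR2 (0.97 ± 0.14) and TASOR (0.71 ± 0.14). Median centring ended both calls of ZNF134, at 0.92 in MPP8 and 0.99 in PPHLN1. Against untransduced cells its PPHLN1 difference passed (1.01) and its MPP8 difference did not (0.88). ZNF530 (57599885 to 57612722) passed in PPHLN1 alone, at 1.0 ± 0.17, with 0.88 in TASOR2, 0.87 in MPP8 and 0.68 in TASOR, so the threshold and not a gap in size sets its call, which was lost after median centring (0.78), after quantile normalization (0.79), with the pseudocount (0.99) and against untransduced cells (0.76).

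**Figure D2:**
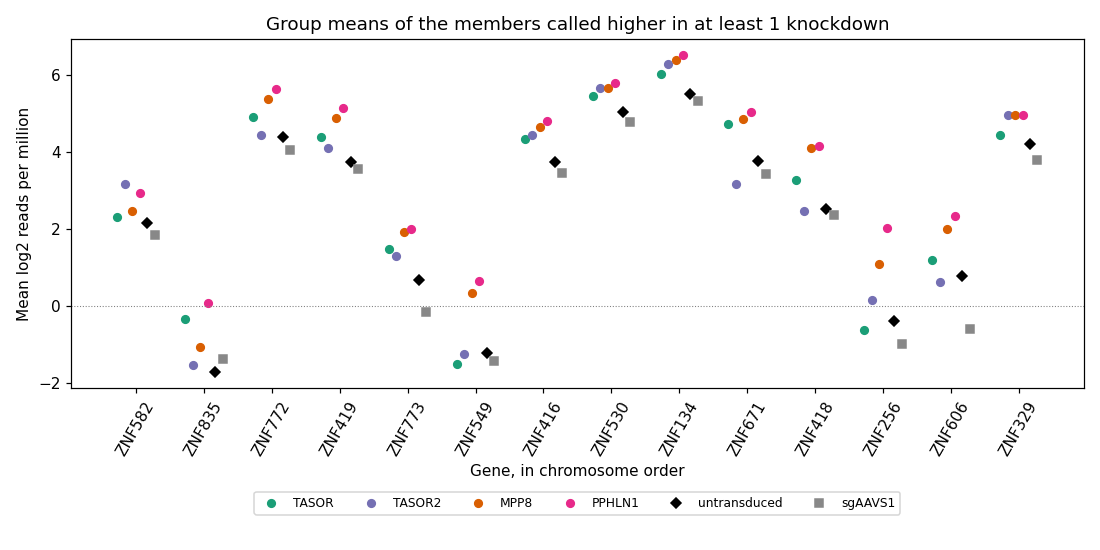
Group means (log2 RPM) of the 14 members called higher in at least 1 knockdown, in chromosome order, with 1 symbol for each group. All 14 were called higher in the PPHLN1 knockdown, so their PPHLN1 means stand above the sgAAVS1 means by this choice of members. TASOR2 means of several members, among them ZNF671, ZNF418, ZNF549 and ZNF835, stand near the controls.

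ZNF671, whose promoter is known to be methylated in several cancers, separated the TASOR and TASOR2 knockdowns. It had means of 4.74 in TASOR, 3.17 in TASOR2, 4.85 in MPP8, 5.06 in PPHLN1, 3.76 in untransduced and 3.44 in sgAAVS1 cells (57719751 to 57727624, minus strand). It was higher in TASOR (1.30 ± 0.25), MPP8 (1.42 ± 0.25) and PPHLN1 (1.62 ± 0.25), and its TASOR2 mean differed by -0.27 ± 0.34 from sgAAVS1. With untransduced cells as the control the TASOR call of ZNF671 was lost (0.97), while MPP8 (1.09) and PPHLN1 (1.30) passed. Set directly against TASOR, the TASOR2 mean of ZNF671 was lower by -1.56 ± 0.31. ZNF418 (57921884 to 57935393, minus strand) had 3.27 in TASOR, 2.47 in TASOR2, 4.10 in MPP8, 4.15 in PPHLN1, 2.51 in untransduced and 2.36 in sgAAVS1 cells. It passed in MPP8 (1.73 ± 0.36) and PPHLN1 (1.79 ± 0.35), while its TASOR mean lay between these and the controls, at 0.91 ± 0.38, and its TASOR2 mean was 0.11 ± 0.46 above sgAAVS1.

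ZNF256, ZNF606 and ZNF329 close the stretch. ZNF256 (57940833 to 57947675, minus strand) had 4.47 reads per library in TASOR, 6.48 in TASOR2, 12.6 in MPP8, 24.4 in PPHLN1, 5.66 in untransduced and 3.11 in sgAAVS1 cells. Its PPHLN1 mean was 8.16-fold that of sgAAVS1 (3.03 ± 1.04 on the log2 scale) and its MPP8 mean 4.26-fold (2.09 ± 1.12), and both passed against untransduced cells too, by 2.42 ± 1.02 and 1.48 ± 1.10. With so few sgAAVS1 reads the size depends on the pseudocount, and with 0.5 added the log2 differences of ZNF256 were 2.20 in PPHLN1 and 1.40 in MPP8, both still called. When the larger mean had to lie above 2 in place of 0, its MPP8 call was lost and its PPHLN1 call was kept. ZNF606 (57977053 to 58003349, minus strand) had 15.9 reads per library in TASOR, 8.94 in TASOR2, 23.5 in MPP8, 30.3 in PPHLN1, 12.6 in untransduced and 4.11 in sgAAVS1 cells. The low value of ZNF606 was in sgAAVS1 itself, which lay 1.37 ± 1.06 under untransduced cells, and against untransduced cells the differences were 0.42 ± 0.79 in TASOR, -0.16 ± 0.93 in TASOR2, 1.22 ± 0.72 in MPP8 and 1.57 ± 0.70 in PPHLN1, of which MPP8 and PPHLN1 passed. With 0.5 added, the ZNF606 differences from sgAAVS1 were 1.94 in MPP8 and 2.26 in PPHLN1, still called, and 0.80 in TASOR2, not called. ZNF329 (58126252 to 58155110, minus strand) had 4.44 in TASOR, 4.97 in TASOR2, 4.97 in MPP8, 4.96 in PPHLN1, 4.21 in untransduced and 3.81 in sgAAVS1 cells as log2 means. It was higher by 1.16 ± 0.23 in TASOR2, 1.16 ± 0.23 in MPP8 and 1.15 ± 0.23 in PPHLN1, and by 0.63 ± 0.24, short of the threshold, in TASOR. None of the 4 knockdowns passed for ZNF329 against untransduced cells, and quantile normalization ended its MPP8 (0.99) and PPHLN1 (0.92) calls.

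Of the 22 tested members of the stretch, 10 were called in no knockdown. Among them, the adjacent ZNF586, ZNF552, ZNF587B, ZNF814 and ZNF587 had differences from sgAAVS1 of 0.10, -0.03, 0.04, 0.22 and 0.33 in PPHLN1 and 0.14, -0.04, 0.12, 0.42 and 0.11 in MPP8. Their differences lay between -0.05 and 0.18 in TASOR and between -0.35 and 0.19 in TASOR2. ZNF587, which with its near copy ZNF417 is known to bind and repress HERVK transposons, had means of 7.65 in TASOR, 7.66 in TASOR2, 7.58 in MPP8, 7.80 in PPHLN1, 7.60 in untransduced and 7.47 in sgAAVS1 cells. ZNF587, ZNF587B, ZNF417 and ZNF814 resemble each other closely in sequence, and the sources used here do not say how reads matching several of them were counted, so their single values are uncertain.

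**Figure D3:**
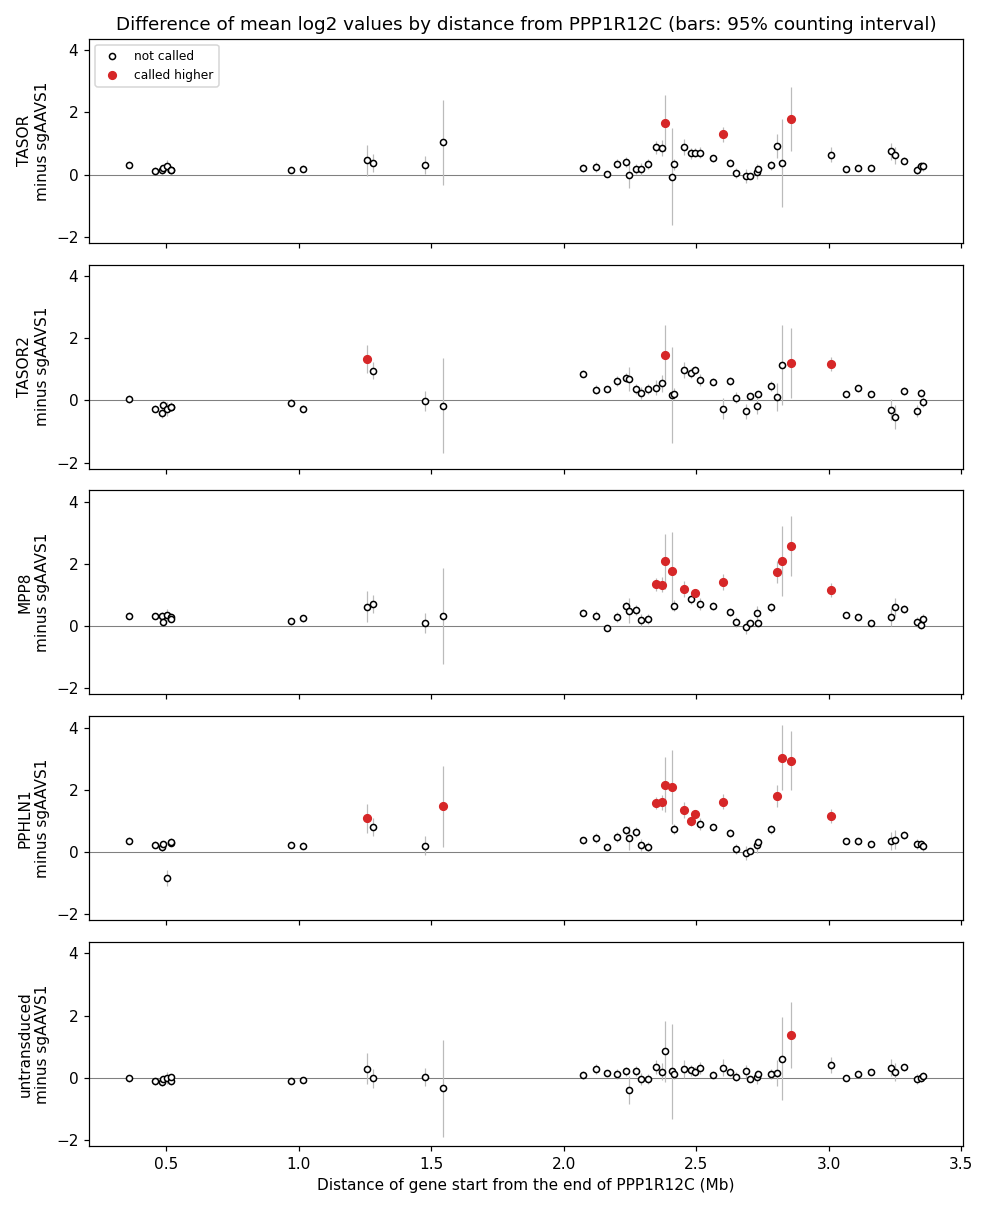
Difference of mean log2 values from sgAAVS1 (y axis, 1 panel for each group) against the distance of the gene's start from the end of PPP1R12C in Mb (x axis) for the 53 tested members, with bars for the 95% counting interval and filled points for members called higher. The 7 members nearest PPP1R12C were called in no group, and the filled points of MPP8 all lie in the telomere-side block.

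The middle block gave calls for ZNF582 and ZNF835. ZNF582 (56375846 to 56393545, minus strand), a KRAB gene known as a methylation marker in cervical cancer, had means of 2.31 in TASOR, 3.17 in TASOR2, 2.47 in MPP8, 2.94 in PPHLN1, 2.14 in untransduced and 1.85 in sgAAVS1 cells. It was higher in TASOR2 (1.32 ± 0.45) and PPHLN1 (1.09 ± 0.46) than in sgAAVS1, with 0.62 ± 0.50 in MPP8 and 0.46 ± 0.49 in TASOR. The PPHLN1 call of ZNF582 was lost after median centring (0.87) or quantile normalization (0.83), with a pseudocount of 0.5 (0.99) and against untransduced cells (0.79), while its TASOR2 call was kept under each of these. Its neighbour ZNF583 had a difference of 0.95 in TASOR2, 0.80 in PPHLN1, 0.72 in MPP8 and 0.38 in TASOR, and passed in none. ZNF835 (56661981 to 56671783, minus strand) rested on few reads, 5.48 per library in TASOR, 2.0 in TASOR2, 2.83 in MPP8, 6.32 in PPHLN1, 2.24 in untransduced and 2.38 in sgAAVS1 cells. It was called in PPHLN1 (1.47 ± 1.31), and its counting intervals in the other knockdowns cover 0. The call of ZNF835 was lost after median centring (1.25), after quantile normalization (1.22) and with a pseudocount of 0.5 (0.82).

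No member of the first block was called higher or lower than in sgAAVS1. Its median difference was 0.16 in TASOR, -0.22 in TASOR2, 0.32 in MPP8, 0.27 in PPHLN1 and -0.03 in untransduced cells. ZNF784 stood apart in the PPHLN1 knockdown, with a mean of 3.74, against 4.86 in TASOR, 4.30 in TASOR2, 4.94 in MPP8, 4.56 in untransduced and 4.57 in sgAAVS1 cells. The PPHLN1 mean of ZNF784 differed from sgAAVS1 by -0.84 ± 0.26, short of the threshold, and passed it as lower after median centring or quantile normalization. ZNF628 and ZNF579, the members nearest the lower bound of the window, had means of 6.35 and 6.40 in TASOR, 6.07 and 6.02 in TASOR2, 6.37 and 6.61 in MPP8, 6.40 and 6.52 in PPHLN1, 6.01 and 6.16 in untransduced and 6.03 and 6.28 in sgAAVS1 cells. The nearest ZNF genes on the other side of the bound are ZNF813 (start 53467735) and ZNF331 (start 53520981). ZNF331, an imprinted gene, had 4.54 in TASOR, 4.77 in TASOR2, 5.29 in MPP8, 5.47 in PPHLN1, 4.13 in untransduced and 3.65 in sgAAVS1 cells, and would have been called in TASOR2 (1.13 ± 0.24), MPP8 (1.65 ± 0.23) and PPHLN1 (1.82 ± 0.22).

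The members with the highest means differed little between groups. By mean over the 6 groups they were ZNF587 (7.63), ZNF8 (7.45), ZNF274 (7.29), ZNF460 (7.15) and ZNF865 (6.94). Divided by transcript length these means became 4.84, 4.26, 5.86, 5.40 and 4.94 on the log2 scale per kb, and over all members the log2 level per kb ran from -5.61 to 6.02. ZNF274, which is known to bring SETDB1 to the 3′ ends of zinc finger genes, had 7.29 in TASOR, 7.30 in TASOR2, 7.45 in MPP8, 7.47 in PPHLN1, 7.09 in untransduced and 7.11 in sgAAVS1 cells. ZNF8 had 7.51 in TASOR, 7.49 in TASOR2, 7.39 in MPP8, 7.55 in PPHLN1, 7.46 in untransduced and 7.29 in sgAAVS1 cells. None of these 5 genes was called in any comparison with sgAAVS1. Across the 53 tested members the difference ran against the sgAAVS1 level, with Spearman's rho of -0.51 in TASOR, -0.25 in TASOR2, -0.62 in MPP8, -0.58 in PPHLN1 and -0.43 in untransduced cells. The sgAAVS1 mean enters both sides of that relation, which is given as a description.

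ZNF667, ZNF471, ZNF470, ZNF154, ZNF135 and ZNF132 had no mean above 0 and were not tested. ZNF132 had means of -1.0 in TASOR, -2.63 in TASOR2, -0.77 in MPP8, -0.28 in PPHLN1, -2.17 in untransduced and -2.73 in sgAAVS1 cells. In sgAAVS1 a group at 0 reads has a value of -2.78 and allows up to 3 counts over its libraries, which is -2.63. The sgAAVS1 mean of ZNF132 lay between these, so ZNF132 was at the edge of detection there at this depth. ZNF135 had -1.35 in MPP8 and -1.58 in PPHLN1, with -2.70 or less in the other groups.

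Set directly against TASOR, the MPP8 and PPHLN1 knockdowns were higher for a few members. MPP8 was higher than TASOR for 2 of 53 members (0.761% of all genes), ZNF549 by 1.84 ± 1.44 and ZNF256 by 1.73 ± 1.20, and lower for 0 (1% of all genes). PPHLN1 was higher than TASOR for 3 (1.33% of all genes), ZNF256 by 2.67 ± 1.12, ZNF549 by 2.16 ± 1.39 and ZNF606 by 1.15 ± 0.64, and lower for ZNF784 (-1.12 ± 0.27, 0.943% of all genes). TASOR2 was higher than TASOR for 0 members (1.31% of all genes) and lower for 3 (5.11%), ZNF671, ZNF837 (-1.15 ± 0.37) and ZNF497 (-1.05 ± 0.33). The count of members lower in TASOR2 than in TASOR was 2 after median centring and 1 after quantile normalization. With the trend on transcript GC removed it was 1, and with a threshold of 0.58 it was 4. ZNF497 and ZNF837 lack the KRAB core and have transcript GC of 62.6% and 70.1%. Their means were 3.19 and 2.83 in TASOR2 and 4.24 and 3.99 in TASOR. These comparisons share the TASOR libraries.

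**Figure D4:**
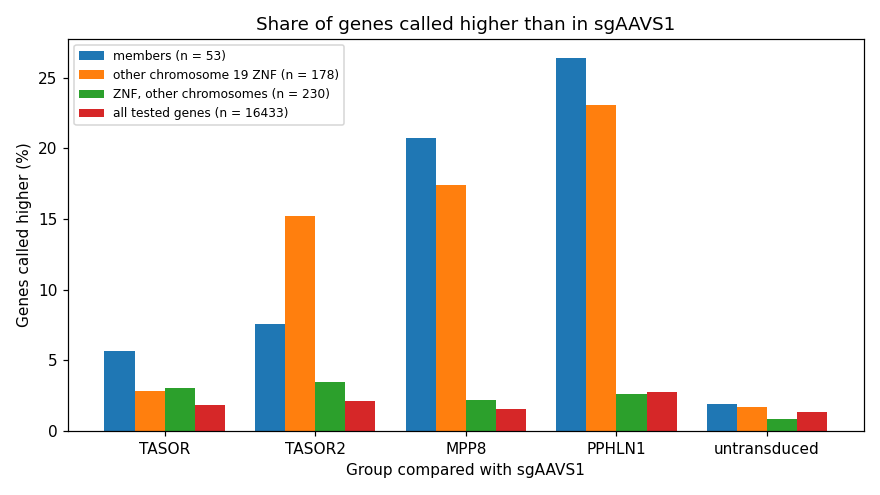
Share of genes called higher than in sgAAVS1 (percent, bars from 0) in each knockdown and in untransduced cells, for the 53 tested members, the 178 other ZNF genes of chromosome 19, the 230 ZNF genes of other chromosomes and all 16433 tested genes. In MPP8 and PPHLN1 the bars of the members and of the other chromosome 19 genes stand above the others, and in TASOR2 the bar of the other chromosome 19 genes is the highest.

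Calls were also frequent among the other numbered zinc finger genes of chromosome 19. Of 178 tested there, 5 were higher in TASOR, 27 in TASOR2, 31 in MPP8 and 41 in PPHLN1. As shares, members against these genes were 5.66% against 2.81% in TASOR, 7.55% against 15.2% in TASOR2, 20.8% against 17.4% in MPP8 and 26.4% against 23.0% in PPHLN1. The difference between the sets was not tested. Of 230 tested zinc finger genes on other chromosomes 7 were higher in TASOR, 8 in TASOR2, 5 in MPP8 and 6 in PPHLN1.

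Members with a KRAB core were set beside those without it, a difference that was not tested, and all 7 members of the GC-rich first block are among those without it. The 38 tested members with a KRAB core had median differences of 0.31 in TASOR, 0.37 in TASOR2, 0.50 in MPP8 and 0.57 in PPHLN1, and 3, 3, 9 and 11 of them were higher. The 15 without it had medians of 0.27 in TASOR, -0.20 in TASOR2, 0.31 in MPP8 and 0.29 in PPHLN1, and 0, 1, 2 and 3 were higher. Within the telomere-side block the 35 tested members with a KRAB core had medians of 0.30 in TASOR, 0.37 in TASOR2, 0.50 in MPP8 and 0.54 in PPHLN1, and 3, 2, 9 and 10 were higher. The 5 without it there had 0.63 in TASOR, -0.05 in TASOR2, 0.61 in MPP8 and 0.39 in PPHLN1, and 0, 1, 2 and 2 were higher, so in TASOR and MPP8 the order of the medians within the block was the opposite of that over all members. Over the 53 members, Spearman's rho between the difference and transcript GC was -0.18 in TASOR, -0.68 in TASOR2, -0.39 in MPP8, -0.40 in PPHLN1 and -0.34 in untransduced cells. Over 13286 tested genes with a GC value it was 0.14 in TASOR, -0.57 in TASOR2, 0.21 in MPP8, 0.24 in PPHLN1 and -0.35 in untransduced cells. Within the 40 tested members of the telomere-side block it was 0.01 in TASOR, -0.43 in TASOR2, -0.23 in MPP8, -0.20 in PPHLN1 and 0.05 in untransduced cells. The genes of a group share libraries, and the part of GC content in the TASOR2 values was not tested beyond this. With the trend on GC removed, 3 members were higher in TASOR, 3 in TASOR2, 11 in MPP8 and 14 in PPHLN1.

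**Figure D5:**
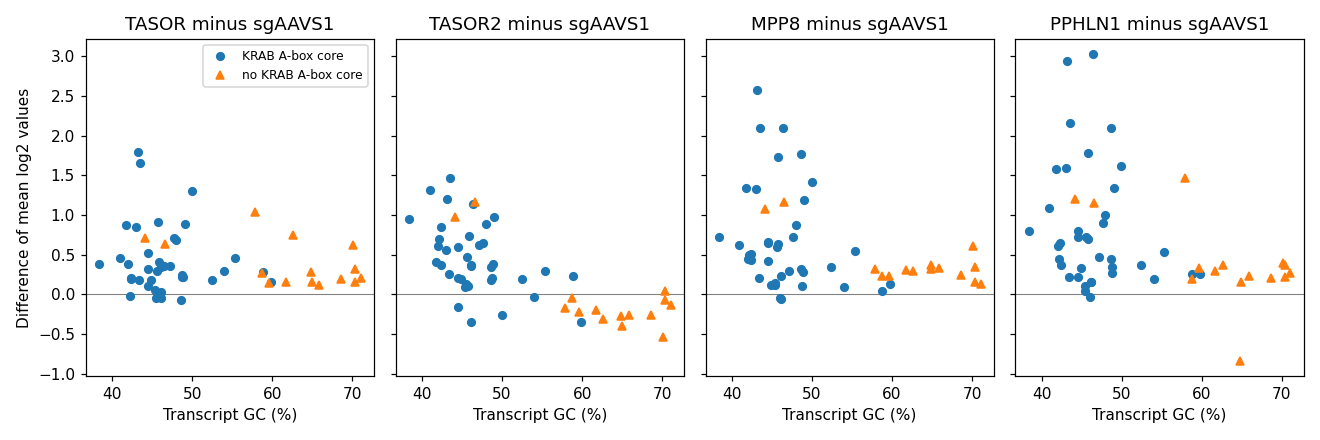
Difference of mean log2 values from sgAAVS1 (y axis) against transcript GC in percent (x axis) for the 53 tested members, 1 panel for each knockdown, with circles for members with a KRAB core and triangles for those without. In the TASOR2 panel most triangles lie below 0, at the GC-rich end.

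Of the 14 tested members with the first promoter run, 2 were higher in TASOR, 1 in TASOR2, 7 in MPP8 and 7 in PPHLN1, and of the 35 with a promoter but without the run 1, 3, 4 and 7 were. Their median differences were 0.34 in TASOR, 0.48 in TASOR2, 0.87 in MPP8 and 0.97 in PPHLN1, and those without it had 0.29, 0.13, 0.31 and 0.34. The calls among members with the run followed position. The 6 that lie before ZNF772, from ZNF264 to ZNF17, were called in no knockdown, while of the 8 between ZNF772 and ZNF329 7 were higher in MPP8 and 7 in PPHLN1. Without the run, 4 of 11 in that stretch were higher in MPP8 and 5 in PPHLN1, and outside it 0 and 2 of 24. Of the 10 tested members with the second run, 0 were higher in TASOR, 0 in TASOR2, 3 in MPP8 and 4 in PPHLN1, and of the 39 without it 3, 4, 8 and 10. Medians with the second run were 0.26 in TASOR, 0.22 in TASOR2, 0.33 in MPP8 and 0.27 in PPHLN1, and without it 0.30, 0.23, 0.37 and 0.45. These splits are descriptions, since the stretch was chosen with the values in view. ZNF418 and ZNF587, whose printed promoters share the second run, differed in PPHLN1 by 1.79 and 0.33 from sgAAVS1.

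Genes between the members were called in the same block. Of 93 tested rows that are not members, 36 lie in the telomere-side block, where 5 were higher in TASOR, 1 in TASOR2, 6 in MPP8 and 7 in PPHLN1, and 57 lie outside it, where 0, 1, 1 and 1 were. Lower calls among those in the block were 0 in each knockdown, and outside it 1 was lower in TASOR, 4 in TASOR2, 0 in MPP8 and 2 in PPHLN1. ZIK1, a KRAB zinc finger gene that overlaps ZNF416 on the other strand, had 2.89 in TASOR, 2.88 in TASOR2, 4.19 in MPP8, 4.61 in PPHLN1, 1.5 in untransduced and 0.94 in sgAAVS1 cells. AURKC, a kinase of meiosis, was higher by 1.25 ± 0.25 in MPP8 and 1.41 ± 0.24 in PPHLN1, and ZSCAN18, a SCAN domain zinc finger gene, by 1.29 ± 0.25 and 1.76 ± 0.23. AC003005.4, a row that overlaps ZNF419 and ZNF773, was higher by 1.12 ± 0.98 in TASOR, 1.53 ± 0.96 in MPP8 and 2.09 ± 0.90 in PPHLN1. In all, 39 members overlap another row and 25 overlap one on the opposite strand, and the sources used here do not say whether strand was used in counting, so reads of overlapping genes may not be separable. Among the 17 tested members that overlap no other row, 0 were higher in TASOR, 1 in TASOR2, 4 in MPP8 and 6 in PPHLN1. Of 13 neighbouring zinc finger genes with other names 7 were tested, and 1 was higher in TASOR, 1 in TASOR2, 2 in MPP8 and 2 in PPHLN1.

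Genes of the machinery through which KRAB proteins silence were not called, apart from the targeted genes. Of 22 genes for TRIM28, SETDB1, HUSH subunits and related H3K9 methylation factors, 0 were higher in any knockdown, and 1 was lower in each, the targeted gene itself. TRIM28, which also lies at this chromosome end, had 8.36 in TASOR, 8.36 in TASOR2, 8.49 in MPP8, 8.49 in PPHLN1, 8.21 in untransduced and 8.34 in sgAAVS1 cells.

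The control guide is directed to a site on the same chromosome arm. AAVS1 is a site within PPP1R12C (55090913 to 55117559), and ZNF628, the nearest member, starts 0.359 Mb beyond that gene's end. PPP1R12C had means of 7.48 in TASOR, 7.23 in TASOR2, 7.59 in MPP8, 7.50 in PPHLN1, 7.21 in untransduced and 6.82 in sgAAVS1 cells, so it stood 0.40 ± 0.09 higher in untransduced than in sgAAVS1 cells. The 7 members nearest to it had a median untransduced minus sgAAVS1 difference of -0.03, the middle block had -0.05, and the telomere-side block had 0.18. Whether the control guide moved any member was not tested.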

How the data were processed

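Total RNA of K562 cells was depleted of ribosomal RNA and made into directional libraries, per the labels' protocols. The tools named are cutadapt and Bowtie2, and the build hg38, per the submitters' processing notes. The sources used here give neither the read counter nor whether strand was used. The authors deposited 35805 gene rows with 6 value columns: the untransduced mean log2 value, and for each other group a value found to be its mean log2 divided by the untransduced mean, a ratio of log2 values and no fold change. Each was multiplied back. Rounding can shift the result in the 102 rows with an untransduced value between -0.05 and 0.05.

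Low values were means of log2 whole reads (100% within 0.001 on the log2 scale, with 0 reads set to 0.9), of 3 libraries for sgAAVS1 and 2 for each other group. For TASOR2 the labels list 3 libraries, and which of them entered is not given. A limma fit would need single libraries, so calls were made by a rule of size with Poisson intervals. The rule was run on simulated libraries that vary by counting error alone, so that run does not cover spread between guides or replicates. Of rows with the same symbol only the highest was kept (87 dropped).

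Members and lists were chosen with earlier results of these data known. Named are members called in a knockdown (up to 8 per knockdown and direction by size, and those called against both controls in at least 2 knockdowns), the 5 with the highest mean, and the 2 ZNF genes on each side of the window's bound; others were named after their values were seen. Exons, transcript GC and reading frames came from GENCODE release 29, where all 59 starts matched, and promoters from RefSeq. Alternatives were scaling, filter, pseudocount, size, control, GC trend and overlap. Python 3.11.15, numpy 2.4.6, pandas 2.3.3, scipy 1.17.1, statsmodels 0.14.6 and matplotlib 3.10.9 were used.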

Additional observations from a re-analysis of the deposited data

How the results depend on the processing

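The count of members called higher was recomputed under 72 combinations of comparison and alternative, of which 44 stayed within 1.5 times the reported count. Beyond that, with the threshold at 0.58 in place of 1 the counts against sgAAVS1 became 13 in TASOR, 15 in TASOR2, 20 in MPP8 and 22 in PPHLN1, and against TASOR 3 in TASOR2, 4 in MPP8 and 7 in PPHLN1. With a filter 2 log2 units higher they became 1 in TASOR, 2 in TASOR2, 7 in MPP8 and 0 in untransduced cells against sgAAVS1, and 0 in MPP8 against TASOR. With untransduced cells as the control they were 0 in TASOR, 2 in TASOR2 and 7 in MPP8, and against both controls 0, 1 and 7. Among members that overlap no other row, an alternative chosen after seeing the data with fewer genes by construction, they were 0 in TASOR, 1 in TASOR2, 4 in MPP8, 6 in PPHLN1 and 0 in untransduced cells against sgAAVS1, and 1 in MPP8 and 1 in PPHLN1 against TASOR. Median centring gave 9 in PPHLN1, a pseudocount of 0.5 gave 0 in untransduced cells, and quantile normalization gave 2 in TASOR2 against TASOR. Of the 32 calls of single members against sgAAVS1, 25 were still called after median centring, 26 after quantile normalization, 28 with the pseudocount, 31 with the GC trend removed and 19 with untransduced cells as the control, where ZNF606 in TASOR2 reversed to -0.16. The cause was not tested. With the filter 2 log2 units higher, 25 of the 32 could be tested and 21 were still called. Those lost were ZNF606 in TASOR, TASOR2 and MPP8, and ZNF256 in MPP8. The calls of ZNF773, ZNF549 and ZNF835 could not be tested under that filter. No paired analysis was possible because the table holds group means only, and leaving out single replicates was not run for the same reason. Depth limits the members under about 10 reads per library, such as ZNF549 and ZNF835, whose counting intervals exceed 1 log2 unit either way.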
